A study of Homo sapiens with 6 samples.

Results

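The proteins of the mitochondrial ribosome are encoded by nuclear genes whose symbols start with MRPL or MRPS. They were examined here in SNU-449 cells, an established human hepatocellular carcinoma line. Members were the genes with at least 1 probe set annotated to a single symbol of the form MRPL or MRPS followed by a number, a letter suffix being allowed, and each was represented by its brightest probe set. This gave 75 of the 19775 genes measured, 48 with an MRPL symbol and 27 with an MRPS symbol, carried by 140 probe sets.

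The study asked which transcripts differ between cells labelled as overexpressing USP48, a ubiquitin-specific protease, and control cells, with 3 arrays for each. The USP48 group is described as cells given a lentivirus carrying USP48 and kept as a stable line under puromycin. The empty vector group is labelled Ctrl, and both groups share the SNU-449 background and the culture medium. The titles call both groups transfected, whereas the protocol describes viral transduction, and the wording was not resolved. The labels name neither the promoter that drives USP48 nor whether the stable cells were 1 clone or a pool. Separate cultures for the replicates are not mentioned either, and the p-values then reflect just the scatter among these 6 samples, possibly technical.

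Mitochondria carry their own ribosomes, which translate the few membrane proteins of the respiratory chain that mitochondrial DNA encodes. Their ribosomal RNA comes from mitochondrial DNA, but every protein component is made in the cytosol and imported. Many of these proteins have a counterpart in bacterial ribosomes, while others are found only in mitochondria, and cytosolic ribosomes are built from a separate set of RPL and RPS proteins. Binding of the ETS factor GABP, of NRF1 and of YY1 near the start of transcription is textbook knowledge for genes of mitochondrial function.

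The stretches of 80 bases that end at the annotated start are shown for 7 members that were higher in the USP48-labelled arrays and for the 2 that were lower, the 7 having been picked because they hold a motif. Of 17 higher members with such a stretch, 9 hold at least 1 of the 3 motifs in it and 8 hold none, MRPS30 and MRPS18C among the 8, and 17 of 48 uncalled members hold one. The stretches are RefSeq promoter sequence of GRCh38.p14, written 5′ to 3′ on the strand of the gene. Capitals mark a match to GABP (CCGGAAG), NRF1 (GCGCATGC) or YY1 (AAGATGGCG) on either strand. MRPS31 (chr13:40771191-40771270, minus strand), MRPS23 (chr17:57850045-57850124, minus strand), MRPL33 (chr2:27771639-27771718, plus strand) and MRPL47 (chr3:179604639-179604718, minus strand) hold the GABP letters. MRPL17 (chr11:6683341-6683420, minus strand) and MRPL32 (chr7:42932296-42932375, plus strand) hold the NRF1 letters, and MRPL52 (chr14:22829807-22829886, plus strand) holds the YY1 letters. MRPL51 (chr12:6493263-6493342, minus strand) and MRPL37 (chr1:54200087-54200166, plus strand) hold none of the 3 within these bases.
MRPS31: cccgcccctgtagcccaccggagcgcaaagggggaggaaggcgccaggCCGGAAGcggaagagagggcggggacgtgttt
MRPS23: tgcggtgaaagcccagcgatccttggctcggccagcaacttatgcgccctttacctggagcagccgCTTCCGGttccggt
MRPL33: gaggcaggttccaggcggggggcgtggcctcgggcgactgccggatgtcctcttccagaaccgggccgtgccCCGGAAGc
MRPL47: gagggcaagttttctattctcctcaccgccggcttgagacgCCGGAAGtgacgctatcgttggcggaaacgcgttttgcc
MRPL17: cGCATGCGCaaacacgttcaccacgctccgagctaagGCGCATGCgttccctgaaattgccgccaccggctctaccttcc
MRPL32: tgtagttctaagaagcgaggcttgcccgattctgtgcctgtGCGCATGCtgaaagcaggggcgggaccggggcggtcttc
MRPL52: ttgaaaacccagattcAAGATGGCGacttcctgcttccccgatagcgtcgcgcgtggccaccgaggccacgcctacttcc
MRPL51: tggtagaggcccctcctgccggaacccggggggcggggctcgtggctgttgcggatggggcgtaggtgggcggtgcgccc
MRPL37: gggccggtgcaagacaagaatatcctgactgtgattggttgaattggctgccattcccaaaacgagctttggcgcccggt

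The deposited values are log2 RMA signals, 1 per probe set and array, with array medians of 3.75 to 3.79. None of the 5 probe sets for USP48 was called higher in the arrays labelled USP48. The brightest averaged 7.92 in USP48-labelled arrays and 8.05 in empty vector arrays (limma adjusted p = 0.347), and 2 dimmer ones were called lower, at 7.06 against 7.88 in empty vector arrays (adjusted p = 0.000112) and at 4.34 against 4.97 in empty vector arrays (adjusted p = 0.000737). Over the mean of its probe sets USP48 differed by -0.32 (adjusted p = 0.00707). The remaining 2 probe sets were not called. They read 6.22 in USP48-labelled arrays and 5.98 in empty vector arrays (limma adjusted p = 0.11), and 1.99 and 2.24 (adjusted p = 0.205). The called probe sets of the targeted gene thus go against the label, and the arrays are named by their labels throughout. Whether these probe sets can detect the transgene was not tested, nor was an exchange of labels, which would turn every direction below. The 18 hybridization control probe sets, which read labelled RNA added before hybridization, averaged 10.09 ± 0.10 in USP48-labelled arrays and 9.79 ± 0.04 in empty vector arrays (SD, n = 3 each), a difference of 0.29 (exact permutation p = 0.1, no lower value being possible with 3 arrays a group). Scaling the arrays on them lowers every difference below by 0.29 and moves the median of all genes to -0.24, against 0.05 as deposited, while positions relative to that median do not change. The 5′ minus 3′ signal of GAPDH, a measure of RNA quality, was -0.51, -0.45 and -1.31 in USP48-labelled arrays 1 to 3 and -0.38 ± 0.06 in empty vector arrays (SD, n = 3). Its part in the results was not tested. Hepatocyte markers were not called in either direction, and the median over the 7 measured was 3.53 to 3.71 in USP48-labelled arrays and 3.38 to 3.46 in empty vector arrays, below the medians of the arrays. Leukocyte markers, 4 of 6 measured, were likewise not called (3.56 to 3.83 in USP48-labelled arrays and 3.38 to 3.53 in empty vector arrays). Of 4 epithelial markers 2 were lower, EPCAM (-0.42, limma adjusted p = 0.00919) and CDH1 (-0.38, adjusted p = 0.0168). Medians over the 4 were 8.25 to 8.54 in USP48-labelled arrays and 8.64 to 8.89 in empty vector arrays. CDH1 itself averaged 2.57 in USP48-labelled arrays and 2.95 in empty vector arrays, below the medians of the arrays. Of 4 mesenchymal markers FN1 was higher (1.48, adjusted p = 0.000728) and CDH2 (-0.65, adjusted p = 0.00107) and VIM (-0.42, adjusted p = 0.00714) were lower. COL1A1 was not called (-0.29, adjusted p = 0.0609). Array medians over these 4 were 8.65 to 9.02 in USP48-labelled arrays and 8.40 to 8.50 in empty vector arrays, although the median of the 4 differences was -0.35. The part of these markers in the results was not tested.

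Mitochondrial ribosomal protein transcripts leaned upward in the USP48-labelled arrays by small amounts. Of the 75 members, 18 were higher, 2 were lower and 55 did not pass an adjusted p of 0.05 (limma, Benjamini-Hochberg over all 19775 genes). That is 24.0% higher and 2.67% lower, where 15.7% of all genes were called higher and 14.1% lower, 29.8% in either direction. The brightest probe sets of the 75 members were all above the array medians, and among the 7305 genes at least as bright as the dimmest member, 23.8% were called higher and 24.9% lower. The share of members called higher was thus near that of these 7305 genes, and the share called lower was below both backgrounds. The 7305 genes were not matched to the members on signal, with a median level of 7.65 against 8.83. With the arrays scaled on the hybridization controls the split turned, with 1 MRPS and 0 MRPL members higher and 12 MRPS and 14 MRPL members lower, against 957 higher and 7495 lower among all genes.

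The median log2 difference, USP48-labelled minus empty vector, was 0.12 over the 75 members, with a range of -0.41 to 0.78, and 0.05 over all genes. It was positive for 48 members and negative for 27. Groups did not overlap for 36 members (48.0%), 30 of them higher and 6 lower, where 42.9% of all genes had groups that did not overlap, 23.8% higher and 19.1% lower. Among the 7305 genes at least as bright as the dimmest member the share was 65.4%, 32.3% higher and 33.1% lower, above that of the members as a whole. The smallest difference called was 0.27 and the largest not called was 0.34. Data were also simulated with the means and within-group SDs of all 19775 genes, with 100 genes changed by 0.5 and 100 by 1. Of these, 47% and 91% were called. The real data had 29.8% of genes called, so the adjusted threshold was stricter in the simulation. Its shares therefore cannot be carried over to the members. A member that was not called may still differ. The median SD within groups was 0.09 for the members and 0.12 for all genes. In these bulk samples, fewer cells of a type and less RNA per cell cannot be told apart.

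**Figure D1:**
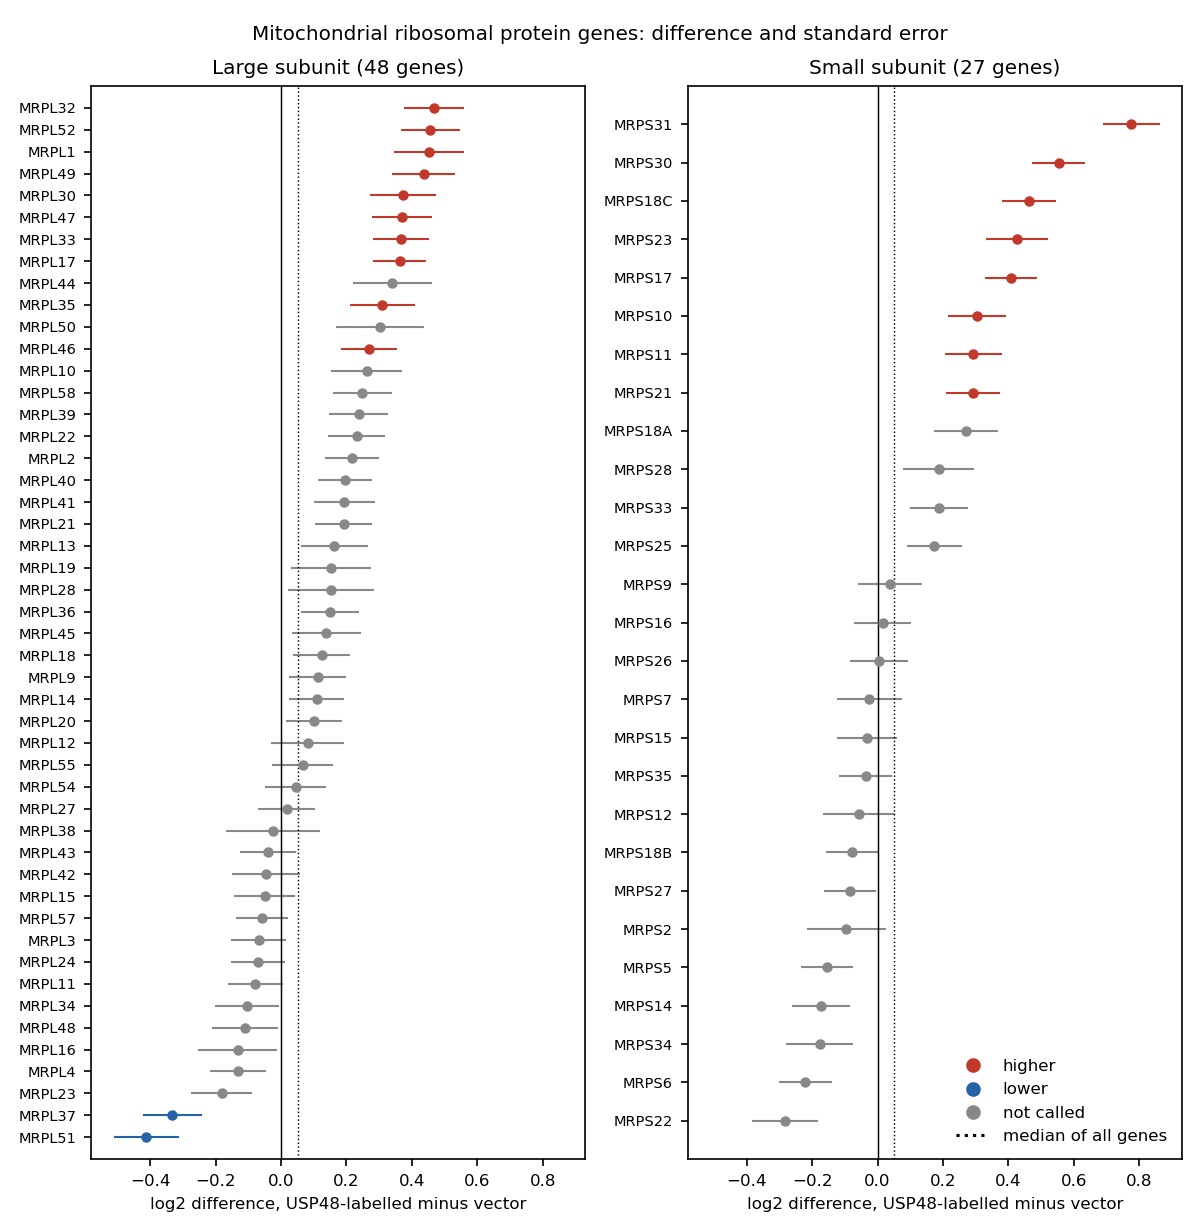
Log2 difference (USP48-labelled minus empty vector, horizontal axis) of each of the 48 MRPL members and the 27 MRPS members, in a panel each, with bars of 1 standard error. Red points were called higher, blue points lower and grey points neither, and the dotted line is the median of all genes at 0.05. MRPS31 stands highest at 0.78 and MRPL51 lowest at -0.41.

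The 48 members with an MRPL symbol are named for the large subunit, which joins amino acids. Of these, 10 were higher (20.8%, against 15.7% of all genes), 2 were lower (4.17%, against 14.1%) and 36 were not called. Over the genes at least as bright as the dimmest member the shares were 23.8% higher and 24.9% lower. The MRPL median difference was 0.14, against 0.05 over all genes, with a range of -0.41 to 0.47, positive in 33 and negative in 15. Scaled on the hybridization controls, 0 were higher and 14 lower, with a median of -0.15. Without empty vector replicate 2 the count higher was 6, and the count lower was 1 without USP48 replicate 1, USP48 replicate 3, empty vector replicate 1 or empty vector replicate 2.

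MRPL32, a protein with a bacterial counterpart that a protease of the inner membrane trims before it joins the ribosome, had 10.80, 10.65 and 10.60 in USP48-labelled arrays, against 10.32, 10.13 and 10.20 in empty vector arrays. The groups did not overlap, and the difference of 0.47 (SE 0.09, limma adjusted p = 0.00303) was the highest among MRPL members. MRPL52, a mitochondria-specific protein, had 8.55, 8.35 and 8.47 in USP48-labelled arrays, against 8.09, 7.99 and 7.91 in empty vector arrays. All 3 USP48-labelled arrays again lay above all 3 empty vector arrays (difference 0.46, SE 0.09, adjusted p = 0.00315). MRPL1, whose bacterial counterpart sits in the stalk where transfer RNA leaves, had 7.51, 7.53 and 7.59 in USP48-labelled arrays, against 7.32, 7.01 and 6.93 in empty vector arrays. The empty vector arrays were the more spread of the groups (SD 0.20 against 0.04 in the USP48-labelled ones), without overlap (difference 0.45, SE 0.11, adjusted p = 0.00892). MRPL49, another mitochondria-specific protein, had 9.90, 10.01 and 9.71 in USP48-labelled arrays, against 9.44, 9.47 and 9.40 in empty vector arrays. Here the USP48-labelled arrays were the more spread and every one lay above the empty vector arrays (difference 0.44, SE 0.10, adjusted p = 0.00578).

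MRPL17 and MRPL47 belong to the proteins around the exit of the tunnel through which new chains leave. MRPL17 had 10.40, 10.45 and 10.42 in USP48-labelled arrays, against 10.13, 10.05 and 10.00 in empty vector arrays (difference 0.36, SE 0.08, limma adjusted p = 0.00646). The USP48-labelled arrays lay close together and above every control array. MRPL47 had 10.19, 10.04 and 10.25 in USP48-labelled arrays, against 9.88, 9.71 and 9.77 in empty vector arrays (difference 0.37, SE 0.09, adjusted p = 0.0111). Its groups did not overlap, but without empty vector replicate 2 the adjusted p was 0.0513. Of the 6 exit tunnel members measured, these 2 were higher and none was lower, with a median difference of 0.19.

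MRPL33, a small protein with a bacterial counterpart, had 10.01, 9.85 and 9.96 in USP48-labelled arrays, against 9.62, 9.51 and 9.59 in empty vector arrays. Its groups did not overlap (difference 0.37, SE 0.09, limma adjusted p = 0.00768). MRPL30 had 9.07, 8.76 and 9.002 in USP48-labelled arrays, against 8.65, 8.50 and 8.57 in empty vector arrays on its brightest probe set (difference 0.37, SE 0.10, adjusted p = 0.0169). The groups were separate, yet its second brightest probe set differed by -0.06, and the call was lost without USP48 replicate 1, empty vector replicate 2 or empty vector replicate 3 (adjusted p 0.0684, 0.0695 and 0.0505). MRPL35 differed by 0.31 (adjusted p = 0.0388) on a probe set of the kind open to cross-hybridization, and its other 2 probe sets differed by -0.07 and -0.10. Without probe sets of that kind its direction turned to -0.070, over the mean of its probe sets it differed by 0.05 (adjusted p = 0.666), and it lost its call without any array but USP48 replicate 2 (adjusted p 0.0524 to 0.141). MRPL46, of the central protuberance on top of the large subunit, differed by 0.27 (adjusted p = 0.0351), a direction that flips to -0.02 when arrays are scaled on the hybridization controls, and it lost its call without any array but empty vector replicate 1 (0.0611 to 0.115). Of 8 central protuberance members measured it alone was called.

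The 2 lower members were MRPL51 and MRPL37, both without a bacterial counterpart. MRPL51 had 10.06, 9.98 and 10.29 in USP48-labelled arrays, against 10.60, 10.53 and 10.43 in empty vector arrays. The groups did not overlap, and MRPL51 fell by 0.41 on the log2 scale (SE 0.10, limma adjusted p = 0.0102). Its probe set is of the kind marked as open to cross-hybridization, and it has no other that names it alone. MRPL37 had 8.72, 8.84 and 8.66 in USP48-labelled arrays, against 9.12, 9.14 and 8.96 in empty vector arrays, and fell by 0.33 (SE 0.09, adjusted p = 0.018). Its groups were separate, but the adjusted p was 0.051 to 0.0744 without USP48 replicate 1, USP48 replicate 3, empty vector replicate 1 or empty vector replicate 2.

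**Figure D2:**
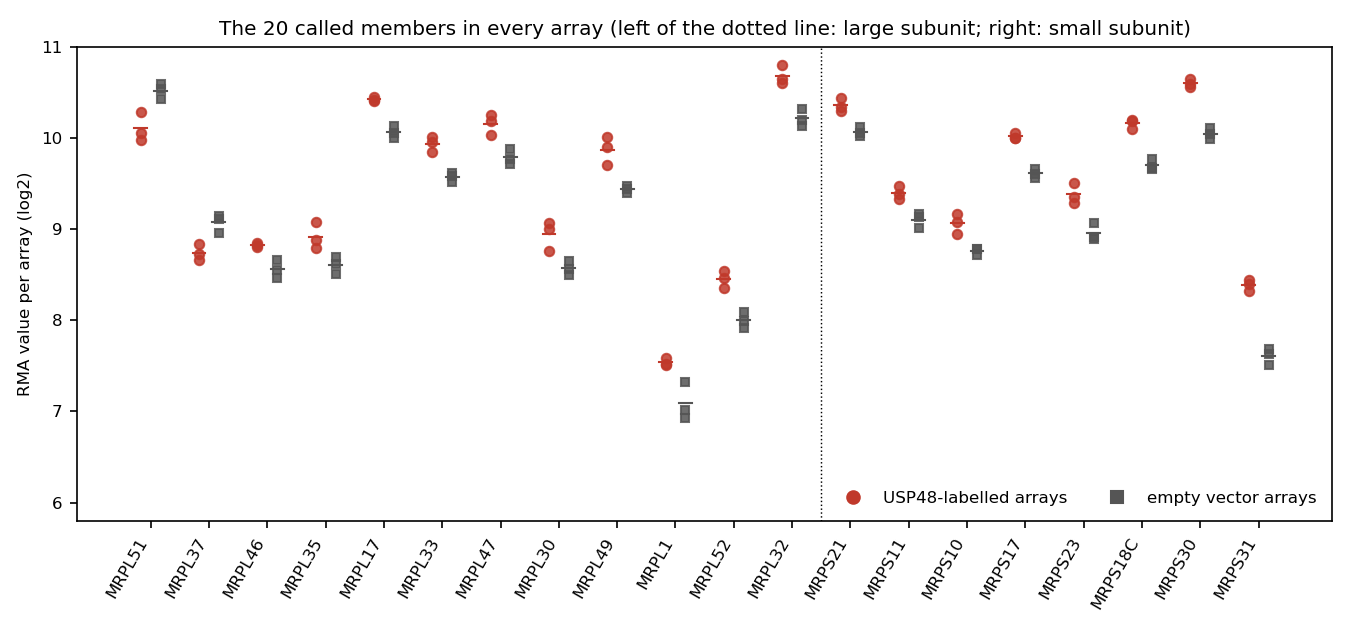
Log2 signal (vertical axis) of the 20 called members in every array, MRPL members left of the dotted line and MRPS members right of it, with the 3 USP48-labelled arrays as red circles and the 3 empty vector arrays as grey squares, and bars at the group means. The groups are separate for each of the 20, and the gap is widest for MRPS31.

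The 27 members with an MRPS symbol are named for the small subunit, which reads the messenger RNA. Of these, 8 were higher (29.6%, against 15.7% of all genes), 0 were lower (against 14.1%) and 19 were not called. Over the genes at least as bright as the dimmest member the shares were 23.8% higher and 24.9% lower. By limma, 31 of all 75 members had an unadjusted p under 0.05. The share of all genes with such a p was not worked out, but 29.8% passed even after adjustment. The MRPS median difference was 0.02, below the 0.05 over all genes, with a range of -0.28 to 0.78, positive in 15 and negative in 12. Without USP48 replicate 1 or empty vector replicate 3 the count higher was 5, without USP48 replicate 3 the count lower was 1, and without empty vector replicate 3 the median was -0.04. Quantile normalization, an intensity trend with a robust prior, or leaving out the dimmest genes each gave 2 lower, and scaling on the hybridization controls gave 1 higher, 12 lower and a median of -0.28.

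MRPS31, a mitochondria-specific protein of the small subunit, changed most of all members. It had 8.40, 8.32 and 8.44 in USP48-labelled arrays, against 7.69, 7.63 and 7.51 in empty vector arrays. The groups lay far apart relative to their spread, at 8.39 ± 0.06 in USP48-labelled arrays and 7.61 ± 0.09 in empty vector arrays (SD, n = 3 each), a 1.71-fold difference (log2 0.78, SE 0.09, limma adjusted p = 7.73e-05). Its next brightest probe set differed by 0.70. It was the only member past 1.5-fold, where 11.2% of all genes were called and past that size, and it stayed higher when the arrays were scaled on the hybridization controls (0.48, adjusted p = 0.00239).

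MRPS30 carries a small subunit symbol but is built into the large subunit. It had 10.64, 10.56 and 10.59 in USP48-labelled arrays, against 10.11, 9.99 and 10.04 in empty vector arrays, on its brightest probe set. These groups did not overlap (difference 0.55, SE 0.08, limma adjusted p = 0.000516), while its 2 dimmer probe sets were called lower, as described with the probe sets.

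MRPS23, a mitochondria-specific protein, had 9.35, 9.28 and 9.51 in USP48-labelled arrays, against 9.07, 8.89 and 8.91 in empty vector arrays. Every USP48-labelled array lay above every empty vector array (difference 0.43, SE 0.09, limma adjusted p = 0.00605). Its dimmer probe set differed by -0.23, and over the mean of both the call was lost (0.10, adjusted p = 0.38). MRPS17, which has a bacterial counterpart, had 10.00, 10.00 and 10.06 in USP48-labelled arrays, against 9.67, 9.60 and 9.57 in empty vector arrays. Both groups were tight and separate (difference 0.41, SE 0.08, adjusted p = 0.00305).

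MRPS10, MRPS11 and MRPS21 have bacterial counterparts and showed the smaller called differences of the MRPS members. MRPS10 had 9.08, 8.95 and 9.17 in USP48-labelled arrays, against 8.78, 8.78 and 8.72 in empty vector arrays (difference 0.30, SE 0.09, limma adjusted p = 0.0239). MRPS11 had 9.39, 9.47 and 9.33 in USP48-labelled arrays, against 9.13, 9.17 and 9.01 in empty vector arrays (difference 0.29, SE 0.09, adjusted p = 0.026). The groups of both were separate by narrow gaps. MRPS21 had 10.44, 10.30 and 10.34 in USP48-labelled arrays, against 10.12, 10.06 and 10.02 in empty vector arrays (difference 0.29, SE 0.08, adjusted p = 0.0223). Over the mean of its probe sets MRPS11 lost its call (0.11, adjusted p = 0.311). The groups of MRPS21 did not overlap either, but the differences of MRPS11 and MRPS21 turn to -0.00 with the arrays scaled on the hybridization controls. Calls were lost without any array but USP48 replicate 2 for MRPS10 (adjusted p 0.0598 to 0.0735), without USP48 replicate 1, USP48 replicate 2, empty vector replicate 1 or empty vector replicate 3 for MRPS11 (0.0593 to 0.0904), and without USP48 replicate 1, empty vector replicate 2 or empty vector replicate 3 for MRPS21 (0.0675 to 0.0812).

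The paralogues MRPS18A, MRPS18B and MRPS18C descend from the bacterial small subunit protein S18, and in the human mitoribosome MRPS18A lies in the large subunit and the other two in the small one. MRPS18C had 10.19, 10.10 and 10.20 in USP48-labelled arrays, against 9.77, 9.67 and 9.67 in empty vector arrays. It was higher without overlap (difference 0.46, SE 0.08, limma adjusted p = 0.00171). MRPS18A had 8.64, 8.80 and 8.49 in USP48-labelled arrays, against 8.35, 8.44 and 8.33 in empty vector arrays. Its groups did not overlap, but the difference of 0.27 (95% interval 0.05 to 0.49) missed the threshold on the brightest probe set (adjusted p = 0.061), while a dimmer one differed by 0.38 and was called higher. With its probe sets averaged MRPS18A passed the threshold (adjusted p = 0.0233), as it did with an intensity trend (0.0289), without the dimmest genes (0.0351), with the replicate number as a block (0.0478) and without USP48 replicate 3 (0.0223). MRPS18B had 9.03, 8.99 and 8.94 in USP48-labelled arrays, against 9.03, 9.08 and 9.08 in empty vector arrays, with a difference of -0.08 (95% interval -0.25 to 0.10, adjusted p = 0.521). Its groups overlapped, and its interval did not reach the lower end of that of MRPS18C (0.28 to 0.65), though the difference between the paralogues was not tested.

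Of the brightest members that were not called, 3 had overlapping groups and MRPS6 did not. MRPL3, a protein with a bacterial counterpart at the core of the large subunit, had 10.79, 10.70 and 10.72 in USP48-labelled arrays, against 10.89, 10.74 and 10.79 in empty vector arrays (difference -0.07, 95% interval -0.25 to 0.12, limma adjusted p = 0.593). MRPL18, of the central protuberance, had 10.63, 10.53 and 10.75 in USP48-labelled arrays, against 10.54, 10.48 and 10.52 in empty vector arrays (difference 0.12, interval -0.07 to 0.32, adjusted p = 0.326). The groups of both overlapped, and the intervals leave room for differences of the size called elsewhere in the set only for MRPL18. MRPS15 had 10.51, 10.32 and 10.58 in USP48-labelled arrays, against 10.50, 10.52 and 10.48 in empty vector arrays (difference -0.03, interval -0.24 to 0.17, adjusted p = 0.824). MRPS6 had 9.74, 9.85 and 9.75 in USP48-labelled arrays, against 10.00, 10.01 and 10.00 in empty vector arrays (difference -0.22, interval -0.40 to -0.04, adjusted p = 0.0635). The groups of MRPS15 overlapped and those of MRPS6 did not, the empty vector arrays of MRPS6 being nearly equal. MRPS6 was called lower after quantile normalization (adjusted p = 0.0247), with an intensity trend (0.0159), without the dimmest genes (0.0346) and in the fit over gene means (0.0394), and after scaling on the hybridization controls MRPS6, MRPL3 and MRPS15 were called lower (-0.51, -0.36 and -0.33). In all, 16 uncalled members had groups that did not overlap. Called or not, 42.9% of all genes had such groups, and 65.4% of those at least as bright as the dimmest member. The share among uncalled genes was not worked out.

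The large and small subunits were set side by side by symbol and by structure. By symbol, the MRPL median lay 0.13 above the MRPS median. By structure, with MRPS18A and MRPS30 moved to the large subunit, 11 of 50 large subunit members were higher and 2 lower, and 7 of 25 small subunit members were higher and 0 lower. The medians were then 0.15 for the large subunit and 0.01 for the small subunit. Over all genes the median was 0.05, with 15.7% called higher and 14.1% lower. Of the 45 members with a bacterial counterpart, 12 were higher and 0 lower, with a median of 0.11, and of the 30 others, with MRPS18A and MRPS18B counted among them, 6 were higher and 2 lower, with a median of 0.16. Both classes thus held higher members, and no difference between classes or subunits was tested.

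**Figure D3:**
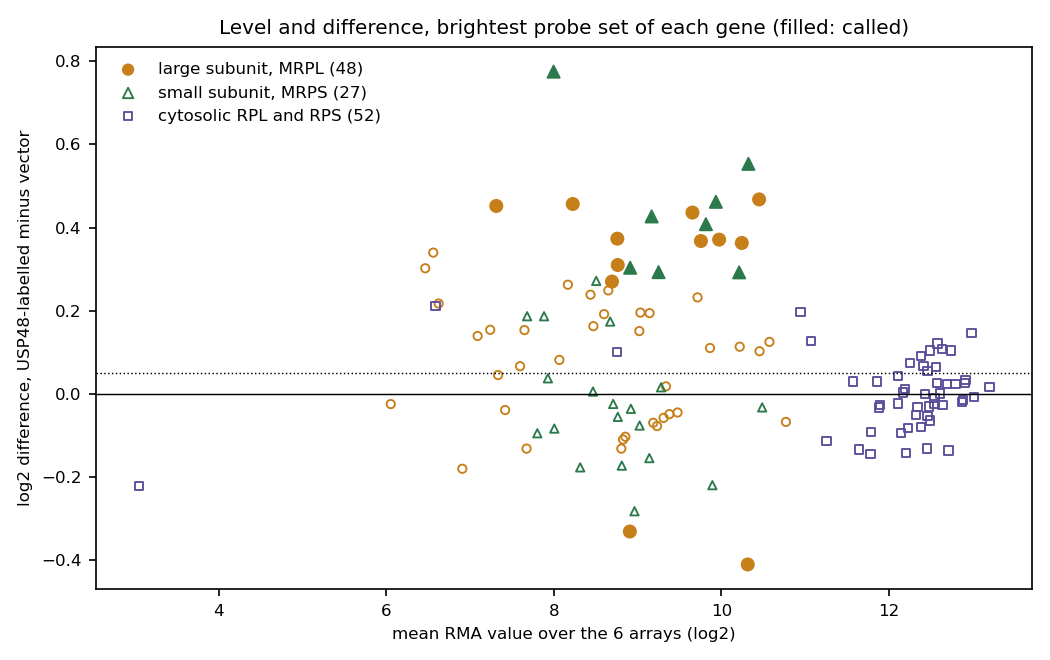
Mean log2 signal over the 6 arrays (horizontal axis) and log2 difference, USP48-labelled minus empty vector (vertical axis), of the MRPL members, the MRPS members and 52 cytosolic RPL and RPS genes. Filled points were called, the dotted line is the median of all genes at 0.05, and the cytosolic points, none of them filled, lie in a narrow band between -0.22 and 0.21.

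Cytosolic ribosomal protein genes served as the comparison set. Of the 77 listed, 52 had a probe set of their own, and 0 of them were called higher and 0 lower by limma, where 1 had an unadjusted p under 0.05. An intensity trend with a robust prior called 2 higher and 3 lower. Their median difference was 0.00, with a range of -0.22 to 0.21, positive in 26 and negative in 26. Within 0.1 of the median of all genes lay 36 of the 52 cytosolic genes and 19 of the 75 mitochondrial ones. RPL41, the brightest, averaged 13.21 ± 0.03 in USP48-labelled arrays and 13.19 ± 0.01 in empty vector arrays (SD, n = 3 each), with a difference of 0.02 (95% interval -0.16 to 0.19, adjusted p = 0.90). RPL36A had the lowest adjusted p, at 0.0861 with a difference of -0.22, and was picked after its values were seen. Its signal averaged 3.05 over the 6 arrays, below the medians of the arrays. RPLP2, at the upper end of the range, averaged 6.59, above those medians, while 48 of the 52 cytosolic genes were above 11. Both ends of the range thus came from probe sets dimmer than most of the list.

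The signal of the cytosolic probe sets was above 11 for 48 of 52 and above 12 for 39, near the top of the range of 0.19 to 13.24, while 0 of the 75 mitochondrial ones were above 11. Differences near the top of an array's range can be compressed, and its part in the narrow band was not tested. Among the mitochondrial members themselves, signal and difference were nearly unrelated (Spearman 0.04 over 75 genes that share the 6 arrays, a description across genes). Scaling on the hybridization controls called 29 of the 52 cytosolic genes lower, with a median of -0.29.

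Probe sets of a gene did not always move together. The 37 members with several probe sets had 65 dimmer ones besides the brightest, of which 10 were called higher and 9 lower, with 12.6% of all single-gene probe sets called higher and 14.7% lower. Of the 20 called members, 10 had no other probe set. MRPS31 had a dimmer probe set that moved with the brightest, at 7.53, 7.52 and 7.53 in USP48-labelled arrays, against 6.90, 6.83 and 6.74 in empty vector arrays. MRPL52 had 1 that differed by 0.35 and MRPS10 had 1 that differed by 0.34, both called higher too. That of MRPS10 is of the kind open to cross-hybridization. The other dimmer probe set of MRPS10 differed by 0.17 and was not called (limma adjusted p = 0.257).

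MRPS30 and MRPL30 were the 2 called members with probe sets called in the opposite direction. MRPS30 had a probe set at 4.00, 3.91 and 4.32 in USP48-labelled arrays, against 5.83, 5.74 and 5.93 in empty vector arrays, a difference of -1.76 (limma adjusted p = 3.75e-06 over all probe sets). Another had 4.98, 4.96 and 5.36 in USP48-labelled arrays, against 6.19, 5.94 and 5.98 in empty vector arrays, a difference of -0.94. Both moved further than the brightest probe set of MRPS30, and in the other direction. MRPL30 likewise had dimmer probe sets that differed by -1.07 and -0.64. With the probe sets of each gene averaged, MRPS30 differed by -0.71 (adjusted p = 0.000285) and MRPL30 by -0.24 (adjusted p = 0.0762). Which part of a transcript each probe set reads was not analysed here.

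**Figure D4:**
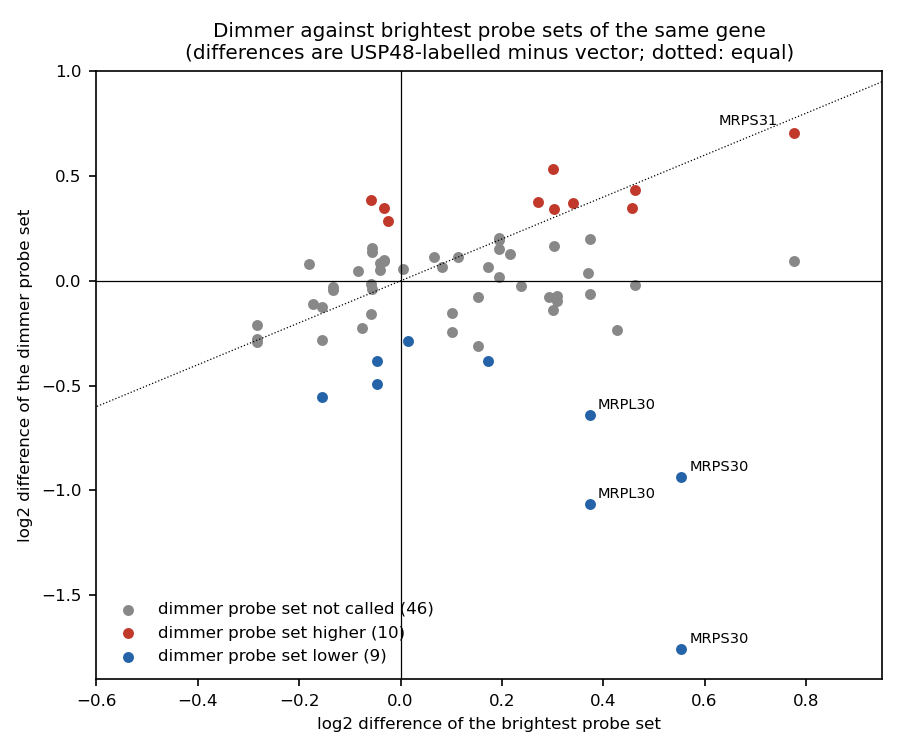
Log2 difference, USP48-labelled minus empty vector, of the brightest probe set of a member (horizontal axis) and of each of its dimmer probe sets (vertical axis), for 65 dimmer probe sets of 37 members. Colours show the call of the dimmer probe set: 10 higher, 9 lower and 46 not called. Points of MRPS30 and MRPL30 lie right of 0 and far below it, and the higher point of MRPS31 lies near 0.70 on the vertical axis.

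Other components of mitochondrial translation are known by other symbols. Of 4 further mitoribosome proteins measured, DAP3, a GTP-binding protein of the small subunit, was higher, with 10.27, 10.40 and 10.33 in USP48-labelled arrays, against 9.96, 9.86 and 9.84 in empty vector arrays (difference 0.45, limma adjusted p = 0.00226). PTCD3, an RNA-binding protein of the small subunit, was lower, with 6.92, 6.92 and 6.94 in USP48-labelled arrays, against 7.20, 7.11 and 7.30 in empty vector arrays (difference -0.27, adjusted p = 0.0334). The groups of both were separate and moved in opposite directions, and the other two were not called. PTCD3 lost its call without any array but empty vector replicate 2 (adjusted p 0.0546 to 0.11), and over the mean of its probe sets DAP3 differed by 0.04 (adjusted p = 0.74).

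Of 13 mitochondrial translation factors measured, 3 were higher (23.1%) and 1 lower (7.69%), with a median of 0.01. Among all genes 15.7% were called higher and 14.1% lower. Among the 7305 genes at least as bright as the dimmest member the shares were 23.8% and 24.9%. Neither this list nor those that follow were tested against these shares. MTRF1, a release factor, differed by 0.72 (limma adjusted p = 0.000139), TACO1, which promotes translation of a cytochrome oxidase subunit, by 0.36 (adjusted p = 0.0115), and GFM1, an elongation factor, by -0.43 (adjusted p = 0.00426). Of 24 assembly and ribosomal RNA modification factors, 3 were higher (12.5%) and 1 lower (4.17%), with a median of 0.07. The largest changes there were those of MTERF3, which acts in mitochondrial transcription and ribosome assembly (0.47, adjusted p = 0.00406), NSUN4, a methyltransferase of the ribosomal RNA (0.36, adjusted p = 0.0354), and FASTKD2, an RNA-binding protein (0.33, adjusted p = 0.0284). Over the mean of their probe sets NSUN4 and FASTKD2 turned to -0.26 and -0.11, MTRF1 lost its call (0.20, adjusted p = 0.0685) and so did GFM1 (-0.07, adjusted p = 0.54). NSUN4 also lost its call without any array but USP48 replicate 3 (adjusted p 0.0566 to 0.119), and FASTKD2 without any but empty vector replicate 1 (0.0519 to 0.104).

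Of 16 genes of mitochondrial transcription and RNA handling, 5 were higher (31.25%) and 1 lower (6.25%), with a median of 0.14. Among all genes 15.7% were called higher and 14.1% lower. PNPT1, the exonuclease that degrades mitochondrial RNA, averaged 10.03 in USP48-labelled arrays and 8.71 in empty vector arrays, a difference of 1.32 (limma adjusted p = 1.43e-05), and SUPV3L1, the helicase that works with it, differed by 0.34 (adjusted p = 0.00883). TEFM, a transcription elongation factor, differed by 0.55 (adjusted p = 0.00174). The 15 mitochondrial aminoacyl-tRNA synthetases measured split evenly, 4 higher and 4 lower (26.7% each). CARS2, for cysteine, differed by -0.86 (adjusted p = 4.49e-05) and RARS2, for arginine, by -0.59 (adjusted p = 0.00126), whereas HARS2, for histidine, differed by 0.45 (adjusted p = 0.00487). Over the mean of their probe sets TEFM, CARS2 and RARS2 were no longer called (0.03, -0.14 and -0.14). Transcripts of mitochondrial DNA were not analysed here.

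Regulators known to act on such genes were also read, 9 in all, of which 3 were higher (33.3%) and 2 lower (22.2%). Among all genes 15.7% were called higher and 14.1% lower. GABPB1, the beta subunit of GABP, had 9.68, 9.68 and 9.67 in USP48-labelled arrays, against 8.68, 8.51 and 8.54 in empty vector arrays (difference 1.10, limma adjusted p = 6.8e-06). GABPA, its DNA-binding subunit, had 5.57, 5.58 and 5.55 in USP48-labelled arrays, against 5.03, 4.90 and 4.99 in empty vector arrays (difference 0.59, adjusted p = 0.000323). Both subunits were higher in every USP48-labelled array, and the growth regulator MYC differed by 0.71 (adjusted p = 0.000859). The probe set of GABPB1 is of the kind open to cross-hybridization, and without such probe sets GABPB1 differed by 0.27 (adjusted p = 0.0876). Over the mean of its probe sets GABPA differed by 0.07 (adjusted p = 0.597). The 2 lower ones, named after their values were seen, were PPARGC1A, a coactivator of mitochondrial genes, with 4.26, 4.10 and 4.31 in USP48-labelled arrays, against 4.71, 4.86 and 4.65 in empty vector arrays (difference -0.52, adjusted p = 0.00198), and NRF1 (difference -0.30, adjusted p = 0.0444). YY1 was not called (0.08, adjusted p = 0.54).

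The promoter windows, 250 bases before to 50 after the annotated start on both strands, were available for 67 members, among them 17 of the 18 higher ones. The GABP letters stood in 29 of the 67 (43.3%), in 17 of 46 cytosolic ribosomal protein genes with a window (37.0%) and in 12.2% of 27305 genes. They stood in 9 of the 17 higher members (52.9%) and in 20 of the 50 others (40.0%). The NRF1 letters stood in 6 members (8.96%), 4 of them higher, and in 3.68% of all genes. The YY1 letters stood in 12 members (17.9%), 5 of them higher, and in 2.14% of all genes. No motif contains another of the 3, and a match is a description of the letters, not a binding site. MRPL3, which was not called, also holds the GABP letters.

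Some members share a start region with a gene on the other strand. Starts lay within 500 bases of each other, pointing away, for 22 members in 21 pairs, and both genes were measured in 15 pairs. These pairs were chosen after values were seen and carry no test. In 5 pairs both genes were called in the same direction, and in 0 pairs in opposite directions, where 29.8% of all genes were called. MRPL32 and PSMA2, a proteasome subunit, differed by 0.47 and 0.40, MRPL30 and MITD1 by 0.37 and 0.49, and MRPS18C and HELQ, a helicase, by 0.46 and 0.60. MRPL37 and CYB5RL differed by -0.33 and -0.26. MRPL46 and MRPS11, both members, start 320 bases apart and differed by 0.27 and 0.29.

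MRPL49 and FAU, which encodes a cytosolic ribosomal protein fused to a ubiquitin-like one, start 49 bases apart, and MRPL49 was called while FAU was not. MRPL49 averaged 9.87 in USP48-labelled arrays and 9.44 in empty vector arrays, whereas FAU averaged 12.12 in USP48-labelled arrays and 12.09 in empty vector arrays (difference 0.03, 95% interval -0.15 to 0.20, limma adjusted p = 0.822). In 4 further pairs only the neighbour was called, PTCD2 at 0.64 beside MRPS27 at -0.08, PIERCE1 at -0.44 beside MRPS2 at -0.10, SKA3 at -0.43 beside MRPL57 at -0.06, and ZNF189 at 0.30 beside MRPL50 at 0.30. The sign of the difference was shared in 12 of the 15 pairs. Of all 19775 genes, 11691 had a positive difference and 8084 a negative one, so unrelated genes also share a sign often. How often unrelated genes share a sign or a call was not worked out.

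**Figure D5:**
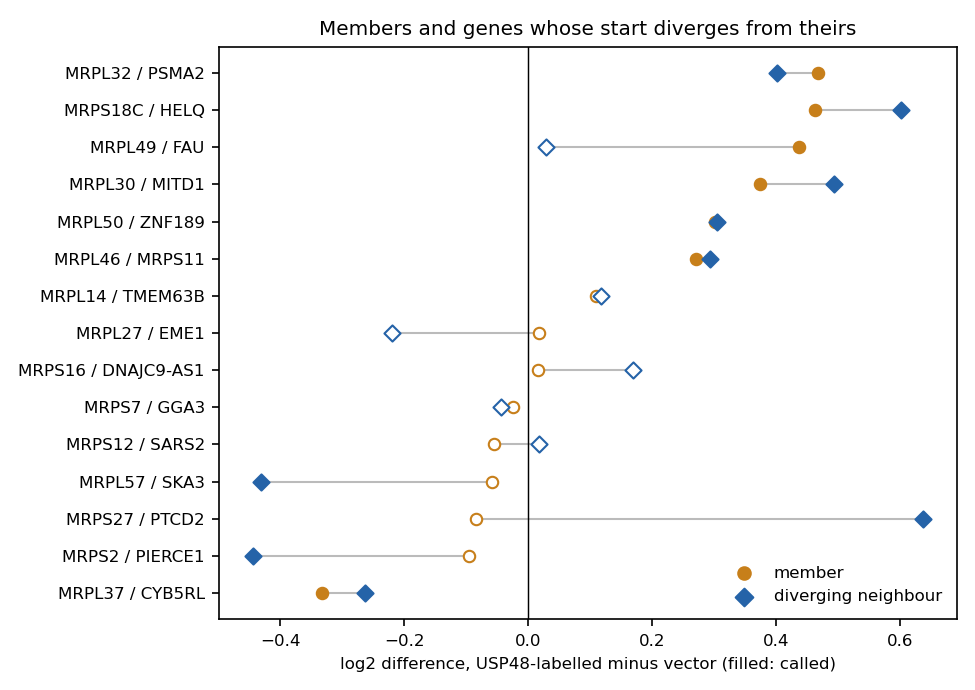
Log2 difference, USP48-labelled minus empty vector, of members (orange circles) and of the gene that starts within 500 bases on the other strand (blue diamonds), for 15 pairs, filled where called. Both symbols are filled and on the same side of 0 in 5 pairs, and the circle of MRPL50, which is open, lies under the diamond of ZNF189.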

How the data were processed

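Total RNA of 6 SNU-449 samples was labelled with biotin and hybridized to Affymetrix arrays, 1 per sample. The authors deposited log2 values, 1 per probe set and array, which the submitters' processing notes credit to RMA, with a version not given in the sources used here. Because RMA equalises arrays, these values cannot show whether cells held more or less RNA in total. Values ran from 0.19 to 13.24, lower than RMA usually gives, and they are called RMA values by those notes alone. For arrays, their number limits the precision.

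Groups and replicate numbers came from the titles. Of 54675 probe sets, 62 were controls and 41091 named 1 gene symbol in the platform annotation, of which 41037 matched RefSeq (GRCh38.p14) and 0 symbols changed. Each gene took its brightest probe set by the mean over the 6 arrays, without a filter on dim ones, which gave 19775 genes. The test was two-sided and run in limma 3.58.1 (R 4.3.3), with lmFit, eBayes and Benjamini-Hochberg adjustment over every gene, and a call needed an adjusted p under 0.05. The fit was tested on simulated data. Python 3.11.15 and matplotlib 3.10.9 were used for plotting.

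The members and lists were chosen with earlier results of these data known. Named are USP48, the called members (up to 8 in each direction per subunit with every array), the 2 brightest uncalled members per subunit, the MRPS18 paralogues and up to 3 called genes of each other list, or the brightest where none passed. Further names, the neighbours at shared start regions among them, were chosen after their values were seen. Alternatives were quantile normalization, median centring, scaling on the hybridization controls, a robust prior with an intensity trend, leaving out the dimmest 1 in 3 genes or probe sets marked _x_at, the mean of all probe sets, a separate fit of every probe set, a block for the replicate number, each array left out, an adjusted p under 0.01 and a 1.5-fold limit.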

Additional observations from a re-analysis of the deposited data

Results flagged for a closer look

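The hybridization control probe sets, which belong to no gene of the cells, read higher in the USP48-labelled arrays. The difference was 0.29 on the log2 scale, at 10.09 ± 0.10 in USP48-labelled arrays and 9.79 ± 0.04 in empty vector arrays (SD, n = 3 each), with an exact permutation p of 0.1, the smallest possible. It is larger than the called differences of MRPL46, MRPS11 and MRPS21. With 3 arrays a group, no search for single arrays that stand apart was made.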

How the results depend on the processing

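Of the 20 called members, all kept their call under median centring, quantile normalization, a robust prior with an intensity trend, a filter on the dimmest genes and a separate fit of every probe set. Scaling on the hybridization controls kept 3 (MRPL51, MRPL37 and MRPS31), reversed MRPL46 (-0.024), MRPS11 (-0.0012) and MRPS21 (-0.0017), and gave 0 MRPL higher and 14 lower (median -0.15), 1 MRPS higher and 12 lower (median -0.28), 29 cytosolic lower (median -0.29) and, of all genes, 957 higher and 7495 lower (median -0.24), since it subtracts 0.29 throughout. Over the mean of all probe sets 15 kept their call, MRPL30 (-0.24), MRPS30 (-0.71), NSUN4 (-0.26) and FASTKD2 (-0.11) reversed, 3 MRPS and 1 cytosolic gene were lower, and the cause was not tested. Without probe sets marked _x_at, MRPL35 reversed (-0.070), and 1 MRPL, 1 cytosolic gene lower and 1 cytosolic gene higher were called. Quantile normalization, the intensity trend and leaving out the dimmest genes gave 2 MRPS lower, the trend 2 cytosolic higher and 3 lower, and leaving out the dimmest genes moved the median of all genes to 0.023, for a cause not tested. At an adjusted p under 0.01, 6 MRPL were higher and 0 lower, 5 MRPS higher, 3847 genes called (1936 higher) and 16 genes of the other lists. Past 1.5-fold, 0 MRPL were higher and 0 lower, 1 MRPS higher, 2210 genes called (1046 higher and 1164 lower) and 7 genes of the other lists. Leaving out 1 array gave 6 to 11 MRPL higher and 1 to 2 lower, 5 to 8 MRPS higher and 0 to 1 lower, and ended the call of 8 of the 20 members at least once. Same-numbered arrays of the groups did not deviate together (correlations 0.004, 0.166 and 0.015), so the numbers were not taken as pairs, and the replicate block gave 12 MRPL higher and 2 lower, 9 MRPS higher and 0 lower, kept all 20 calls and called 5824 genes.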

Other observations

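Probe sets that name a member together with another gene were left out of the fit, and their values carry no test. The probe set shared by MRPL53 and CCDC142 had 9.54, 9.52 and 9.47 in USP48-labelled arrays, against 9.55, 9.58 and 9.41 in empty vector arrays. The probe set shared by MRPS24 and the URGCP-MRPS24 readthrough had 12.03, 12.04 and 11.99 in USP48-labelled arrays, against 12.01, 12.05 and 11.98 in empty vector arrays. Both sets of arrays overlapped, and MRPL53 and MRPS24 have no other probe set. The probe set shared by MRPL51 and SPTLC1 had 7.08, 7.10 and 7.27 in USP48-labelled arrays, against 7.47, 7.64 and 7.36 in empty vector arrays, lower without overlap like the probe set of MRPL51 alone.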
